A study of Arabidopsis thaliana with 3 samples.

Results

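DFR and UF3GT are late genes of anthocyanin synthesis in Arabidopsis thaliana, and their transcripts were followed through 3 states of the seed. The members are the probe sets that the platform annotation pairs alone with DFR (AT5G42800) or UF3GT (AT5G54060), which gave 1 probe set for each gene, 249215_at for DFR and 248185_at for UF3GT, so 2 of the 22746 probe sets that are not controls. They were chosen with their signals on these arrays known, so their own values are a description and carry no test.

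Total RNA was profiled on 3 ATH1 arrays of Affymetrix, 1 per state: unimbibed seed, seed imbibed for 3 days, and seed imbibed for 3 days on medium containing trichostatin A. This compound, abbreviated TSA, blocks histone deacetylases, the enzymes that remove acetyl groups from histones. All seed was surface sterilised wild-type Columbia, sown on MS agar for the imbibed states and germinated under 16 h of light. The label of the treated sample gives 10 µM TSA, while the protocol text common to all samples gives 10 mM. With 1 array per state there are no replicates, so no difference below has a replicate check or a p-value.

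Anthocyanins are red to purple flavonoid pigments that Arabidopsis seedlings make in the light and under stress. Chalcone synthase and chalcone isomerase open the flavonoid pathway, and the dihydroflavonols it yields can go to flavonols or be reduced by DFR, dihydroflavonol 4-reductase, toward anthocyanidins and, in the seed coat, proanthocyanidins. Glycosyltransferases and acyltransferases then decorate the pigment. UF3GT is described in the gene table as a flavonoid 3-O-glucosyltransferase with the family name UGT79B1, and in Arabidopsis this enzyme adds xylose to the sugar that UGT78D2 has already placed on the anthocyanidin. DFR is also known as TT3 (transparent testa), because its loss leaves the seed coat without brown pigment.

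Signals are MAS5 intensities, scaled so that the 3 arrays have the same trimmed mean. A scaled signal below 10.7, the 40th percentile of all values, was treated as a floor, and a ratio with 1 side at the floor is a lower bound, written as "at least". "Rose" and "fell" are used only of changes of at least 2-fold.

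DFR transcript was low in both states without the inhibitor and was higher with TSA. Its scaled signal was 16.7 before imbibition, 18.3 after untreated imbibition and 59.8 with TSA, which is 1.55, 1.71 and 5.57 times the floor. The signals as deposited were 11.6, 20.9 and 69.6. The array of TSA-treated seed stood apart, and both others lay close together just above the floor.

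UF3GT transcript passed the floor in TSA-treated seed and in neither of the other states. Its scaled signal was 0.718 before imbibition, 7.19 after untreated imbibition and 25.3 with TSA, the last of which is 2.36 times the floor. The signals as deposited were 0.5, 8.2 and 29.5. The values for unimbibed and untreated seed have no order here, because both lie below the floor.

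**Figure D1:**
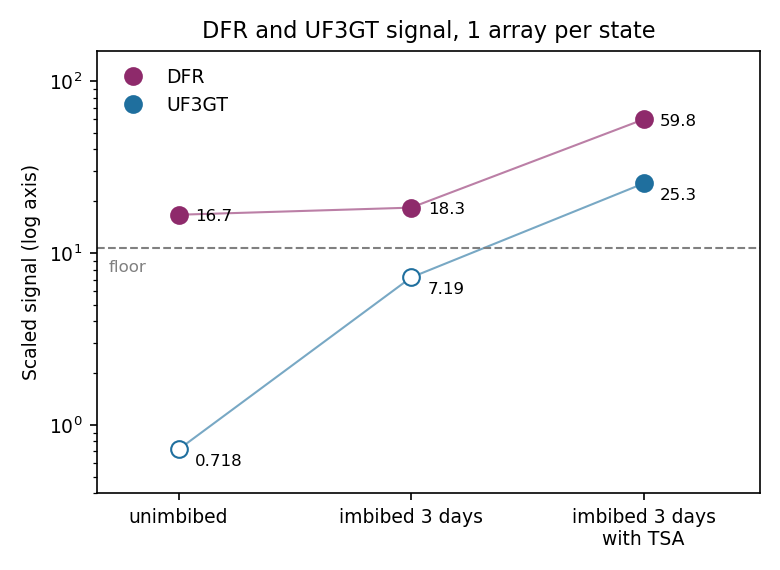
Scaled signal (log axis) of DFR and UF3GT on the 3 arrays, 1 point per array. Filled points are above the floor of 10.7 (dashed line) and open points are below it. For both genes the TSA-treated seed gave the highest signal, 59.8 for DFR and 25.3 for UF3GT. Levels of the 2 probe sets cannot be set against each other.

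The comparison of imbibed with unimbibed seed asks what germination does without the inhibitor. DFR did not pass 2-fold, with a log2 ratio of 0.14. UF3GT was at the floor on both arrays and gave no ratio. Over all probe sets measured in this comparison, 22.6% were higher and 21.1% lower by at least 2-fold. DFR's ratio depended on how the arrays were scaled. It was -0.06 with quantile normalization, 0.85 with signals as deposited, and at least 1.53 with poly-A controls set equal. The poly-A scaling moved the median of probe sets with both signals above the floor from -0.13 to 1.18.

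The comparison of TSA-treated with untreated imbibed seed addresses the question in the title of the series, how germination differs with the inhibitor present. DFR rose, with a log2 ratio of 1.71, a 3.26-fold difference. UF3GT rose at least 2.36-fold, a log2 ratio of at least 1.24. Over all measured probe sets 10.4% were higher and 9.51% lower by at least 2-fold, and the median log2 ratio was -0.02; these shares stand beside the 2 members for scale, and nothing is read from them, since the members were chosen on this contrast. Of the 12254 whose signals both exceeded the floor, 412 had a ratio at or above that of DFR.

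Both calls rest on dim probe sets. Hybridisation controls, which are spiked in after RNA extraction, had log2 ratios with an SD of 0.14 over 18 probe sets in this comparison, and different probe sets of 1 locus differed with an SD of 0.38 over 49 loci. Neither covers the variation between lots of seed. The spread between probe sets of 1 locus was taken only from ratios with both signals above the floor, which UF3GT did not have. Among 4627 probe sets whose mean signal lay within 1.5-fold of DFR's, 11.4% were higher and 9.19% lower with TSA by at least 2-fold. Around UF3GT there were 6716 such probe sets, of which 7.89% were higher and 7.30% lower; this band is centred on a mean in which UF3GT's untreated signal was raised to the floor. When the floor was raised to the 60th percentile of all values, UF3GT was at least 1.12-fold higher and no longer passed 2-fold, while DFR was still at least 2.64-fold higher.

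**Figure D2:**
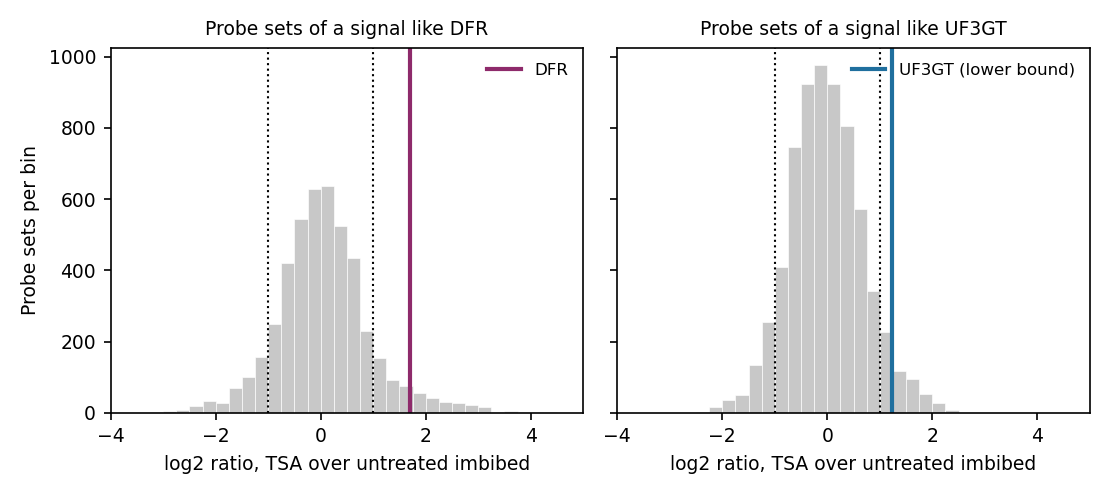
Distribution of log2 ratios, TSA-treated over untreated imbibed seed, among probe sets whose mean signal lies within 1.5-fold of DFR's (left, 4627 probe sets) or UF3GT's (right, 6716). Bars count probe sets per bin, dotted lines mark 2-fold and the coloured line is the member. The member lines stand at 1.71 for DFR and at a bound of 1.24 for UF3GT, whose band is centred on a mean with its untreated signal raised to the floor; both genes were chosen on this contrast, so their place in the distribution is no result.

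Against unimbibed seed, TSA-treated seed had 3.59-fold more DFR signal, a log2 ratio of 1.84, and at least 2.36-fold more UF3GT signal. The log2 ratio of DFR was larger with other scalings, at 2.58 as deposited, 2.52 with hybridisation controls and at least 2.80 with poly-A controls set equal. Over all probe sets 23.3% were higher and 23% lower in this comparison. It uses the same TSA array as the comparison above, so these are not separate observations. Without any floor the UF3GT ratio would be 35.3-fold, a value that rests on a deposited signal of 0.5 in unimbibed seed.

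The processing changed the TSA ratio of DFR little. Over the 9 settings, the main one included, its log2 ratio over untreated seed ran from 1.27, with poly-A controls set equal, to 1.74, with quantile normalization. Under the poly-A scaling the median of probe sets with both signals above the floor was -0.43. DFR stood 1.70 above that median, against 1.73 with the main scaling. UF3GT ran from at least 0.16, with the floor at the 60th percentile, to 1.82, with no floor or the floor at the 25th percentile. Under those last 2 settings both sides were measured, as they were with poly-A controls set equal, at 1.38.

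**Figure D3:**
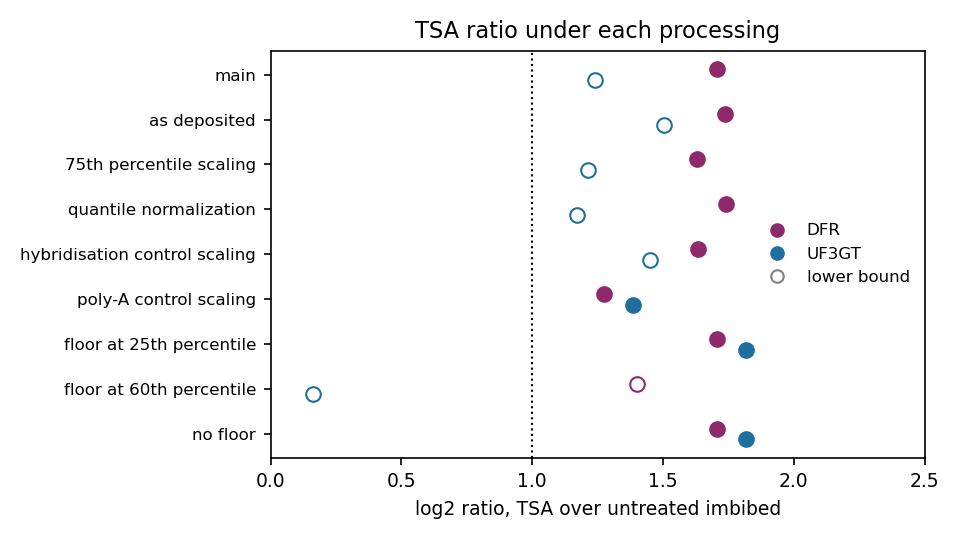
The log2 ratio of TSA-treated over untreated imbibed seed for DFR and UF3GT under each of 9 processing settings. Filled points have both signals above the floor, open points are lower bounds, and the dotted line marks 2-fold. DFR stays between 1.27 and 1.74. UF3GT falls short of 2-fold in 1 setting, the floor at the 60th percentile, where its bound is 0.16.

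The 2 genes were then set beside the rest of the pathway, from lists of phenylpropanoid, flavonoid, anthocyanin, flavonol, proanthocyanidin and monolignol genes and their regulators. Of 87 entries besides DFR and UF3GT, 14 had a probe set of their own, and the others, including chalcone synthase, LDOX and the MYB and bHLH activators of anthocyanin genes, were not analysed here. With TSA, 9 of the 14 were measured. Of these 1 rose and 3 fell, with a median log2 ratio of -0.53 against -0.02 over all measured probe sets. Among all measured probe sets 10.4% were higher and 9.51% lower by at least 2-fold. Counts from 9 genes are too small to set the pathway apart from these shares. A ratio below 0 was found for 5 of the 9 and above 0 for 4. DFR and UF3GT were above 0, but they were chosen on this contrast.

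UGT78D2, the glucosyltransferase that acts between DFR and UF3GT in anthocyanin synthesis and also serves flavonols, fell with TSA. Its scaled signal was 77.9 before imbibition, 100.3 after untreated imbibition and 37.9 with TSA. That is a log2 ratio of -1.40 for TSA over untreated seed, from -1.84 to -1.37 over the settings. DFR and UF3GT were higher and UGT78D2 lower in the same treated seed. Since DFR and UF3GT were chosen on this contrast, with 1 array per state, nothing is read from the difference.

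Upstream, CHIL, a chalcone isomerase-like protein that raises flux into flavonoids, also fell with TSA. Its signal was 1.44 in unimbibed, 66.4 in untreated and 28.1 in treated seed. The log2 ratio with TSA was -1.24, and its rise on imbibition was at least 6.19-fold, where DFR had shown none.

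On the flavonol list, UGT78D1, a flavonol 3-O-rhamnosyltransferase, had signals of 1.44, 45.7 and 29.2, a log2 ratio with TSA of -0.65 that passed 2-fold (-1.08) with poly-A controls set equal but not with the main scaling. AT1G06000, which the gene table leaves without a name, had 10.5, 299.2 and 87.6 and fell with a log2 ratio of -1.77. UGT78D3 was below the floor on all 3 arrays. Both measured entries of this list were at least 4.26-fold higher after imbibition, and both had a ratio below 0 with TSA. Over all measured probe sets 22.6% were higher and 21.1% lower by at least 2-fold on imbibition, and the median log2 ratio with TSA was -0.02. So few entries cannot set the list apart from these values.

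The remaining late anthocyanin entries with a probe set lay near or below the floor. AT4G14090, entered on that list as UGT75C1 but without a name in the gene table, had signals of 1.87 in unimbibed, 1.05 in untreated and 17.4 in treated seed. Like UF3GT it was above the floor with TSA alone, at least 1.62-fold higher, which does not pass 2-fold. Its log2 ratio was at least 1.02 with poly-A controls set equal and at least 1.83 with the floor at the 25th percentile. With the floor at the 60th percentile it was not measured. Without a floor its log2 ratio was 4.05, a value that rests on a deposited signal of 1.2 in untreated seed. AT5MAT, an anthocyanin malonyltransferase, had 0.575, 7.98 and 8.93, below the floor in every state.

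Among regulators, HYH, a bZIP factor of light signalling, had signals of 9.05, 50.6 and 34.96, was at least 4.71-fold higher after imbibition, and had a log2 ratio of -0.53 with TSA. TRY, a small MYB-type protein of epidermal patterning, was below the floor throughout. AT1G23390, entered on the list of light and protein turnover regulators as KFBCHS, has no name in the gene table. Its place on that list does not tell whether it acts for or against the pathway. AT1G23390 had signals of 3.16, 11.5 and 48.8. With a log2 ratio of 2.09, it was the 1 listed pathway gene besides the members to rise with TSA under the main setting. AT4G14090 also passed 2-fold with poly-A controls set equal, with the floor at the 25th percentile or with no floor. Without a floor CCR2, described below, passed it too. The unimbibed signal of AT1G23390 was below the floor, and its highest signal, like those of DFR and UF3GT, was on the treated array.

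The monolignol and proanthocyanidin lists had 1 measured entry each, and neither passed 2-fold with TSA. HCT, of monolignol synthesis, had signals of 153.0, 199.4 and 316.9 and a log2 ratio of 0.67 with TSA. CCR2, a cinnamoyl-CoA reductase of the same protein family as DFR, was below the floor on every array. UGT80B1, a sterol glucosyltransferase needed for normal seed coat pigment, fell on imbibition from 60.9 to 12.9, a log2 ratio of -2.24 that was -0.56 with poly-A controls set equal. It was at 15.3 with TSA, a log2 ratio of 0.25.

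**Figure D4:**
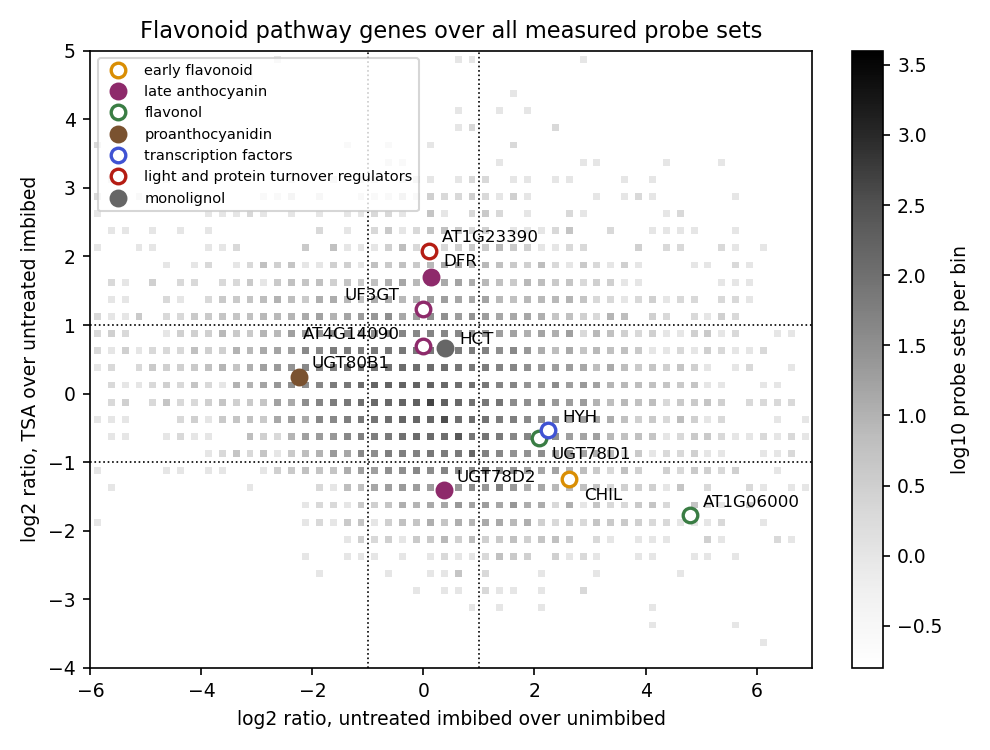
Log2 ratio on imbibition (horizontal) against log2 ratio with TSA (vertical) for the 11 pathway genes measured with TSA. Grey bins are of the 14798 probe sets measured in both comparisons, and bins beyond the ends of the axes are not shown. Open points have at least 1 signal at the floor; UF3GT and AT4G14090 were at the floor on both arrays of the imbibition ratio and are drawn at 0. Dotted lines mark 2-fold. DFR, UF3GT and AT1G23390 lie above the upper line, and UGT78D2, CHIL and AT1G06000 below the lower one.

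The seed coat, where DFR serves proanthocyanidins, contributed no measured marker. BAN, the anthocyanidin reductase that follows DFR toward proanthocyanidins, had signals of 5.604, 1.23 and 1.98, and the other seed coat entry with a probe set, AT3G50990, had 2.30, 0.877 and 0.773. Both were below the floor in every state, and their summed signal was 7.90, 2.11 and 2.75. The other 7 of the 9 seed coat entries were not analysed here.

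Markers of photosynthetic seedling tissue were higher in treated than in untreated seed. All 4 listed members with a probe set, of 12 entries, rose with TSA, between 4.30-fold and 9.38-fold, and their summed signal was 219.0 in unimbibed, 1157 in untreated and 6852 in treated seed. They also rose on imbibition, where DFR had not. Of all measured probe sets, 10.4% rose and 9.51% fell with TSA, and 22.6% rose and 21.1% fell on imbibition. PAP85, the 1 dry seed marker of 12 entries with a probe set, had 10078, 23.4 and 100.9. After its fall on imbibition, PAP85 too was higher with TSA than in untreated seed, by 4.31-fold. In whole seed, more cells of a type and more RNA per cell cannot be told apart, and the part of seedling tissue in the rise of DFR and UF3GT was not tested.

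UF3GT belongs to the UGT family of UDP-sugar glycosyltransferases, which attach sugars to hormones, flavonoids and defence compounds. Besides UF3GT, 63 loci carry a UGT name in the gene table, and 50 had a probe set of their own. With TSA 31 were measured, of which 10 rose (4 of them as lower bounds) and 1 fell, with a median log2 ratio of 0.37. That is 32.3% higher and 3.23% lower, against 10.4% and 9.51% of all probe sets. The list was drawn up after the files had been seen. With poly-A controls set equal its median turned to -0.13, with 6 of 34 higher (17.6%) and 5 lower (14.7%), so the sign of its median depends on the scaling. Under that scaling 6.38% of all probe sets were higher and 22.1% lower, and their median, where both signals exceeded the floor, was -0.43.

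Among the loci with a UGT name in the gene table, the member that fell was UGT78D2, described above. AT1G06000 and AT4G14090, entered on the pathway lists as UGT89C1 and UGT75C1, carry no such name and were not counted. AT1G06000 fell with a log2 ratio of -1.77, and AT4G14090 was at least 1.62-fold higher, short of 2-fold. The counts therefore cover the named loci and not the whole family. Among ratios with both signals above the floor, the highest were those of UGT76B1, which glucosylates the defence signal isoleucic acid, at 2.48, and of UGT72B1, which conjugates monolignols and chlorinated phenols, at 1.77. UGT74B1, of glucosinolate synthesis, had 1.31, and UGT76C2, a cytokinin N-glucosyltransferase, 1.44. UGT79B6, the other member of UF3GT's subfamily with a probe set, had signals of 0.718, 0.790 and 2.06 and was below the floor in every state.

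**Figure D5:**
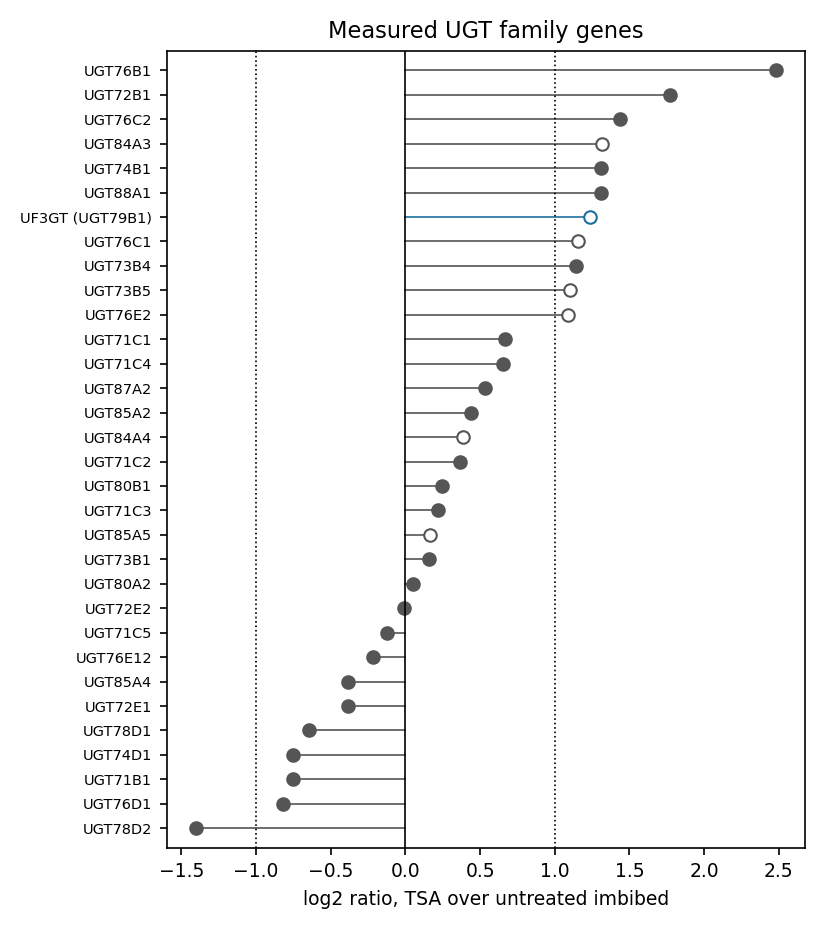
Log2 ratio of TSA-treated over untreated imbibed seed for UF3GT (blue) and the 31 other measured genes with a UGT name in the gene table, sorted by ratio. Open points are bounds with 1 signal at the floor, and dotted lines mark 2-fold. UF3GT at a bound of 1.24 is among 11 genes past the upper line, and UGT78D2 at -1.40 is past the lower one.

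DFR belongs to a family of short-chain reductases with cinnamoyl-CoA reductases and BAN. Of 16 listed loci 9 had a probe set and 6 were measured with TSA; 1 rose, 0 fell, and the median log2 ratio was -0.28, beside the 10.4% higher and 9.51% lower of all probe sets. So few loci show nothing about the family. That 1 was AT1G66800, with signals of 0.431, 10.9 and 22.3 and a log2 ratio of 1.04. This list too was written after the files had been seen.

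DFR and UF3GT lie on the same chromosome with 1240 protein-coding genes between them in the RefSeq annotation (TAIR10.1), so they are not neighbours. Of the 6 nearest genes around DFR with a probe set, 3 on each side, all 6 were measured with TSA, and 0 rose and 1 fell. AT5G42830, 4 genes away, had signals of 17.2, 15.4 and 30.8 and a log2 ratio of 0.99, just under 2-fold, and U2AF35B, a splicing factor subunit 2 genes away, fell by 1.44 on the log2 scale. Around UF3GT 3 of the 6 were measured with TSA, and 0 of those 3 rose or fell. The other 3, AT5G54050, AT5G54030 and AT5G54095, were at the floor on both imbibed arrays. Over all measured probe sets 10.4% rose and 9.51% fell with TSA, so counts this small show nothing about either neighbourhood.

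DFR's pattern, close to level from unimbibed to untreated imbibed seed and higher with TSA, was shared by other probe sets. Of 5398 probe sets above the floor on all 3 arrays and under 2-fold on imbibition, 314 (5.82%) were at least 2-fold higher with TSA. The named genes nearest to DFR, by the distance between log2 signals centred over the 3 arrays, were psbZ (distance 0.03) and petA (0.09), plastid genes of photosystem II and of the cytochrome b6f complex, with AT5G16940 (0.04), AT4G33150 (0.12; lysine-ketoglutarate reductase/saccharopine dehydrogenase) and AT2G42900 (0.13). psbZ had signals of 132.6, 148.1 and 467.0, and AT5G16940, about as dim as DFR, had 14.2, 16.1 and 52.7. In all 19 of 5231 candidate probe sets lay within a distance of 0.25, a likeness over 3 arrays only.

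UF3GT was 1 of 902 probe sets that were at the floor in unimbibed and untreated seed and above it with TSA, out of 6500 at the floor on both. Of the 902, 227 (25.2%), UF3GT among them, were at least 2-fold above the floor. The named genes nearest to it were AT5G05790, AT1G01390, AT5G14730, AT5G18490 and AT1G29520, with signals of 25.1 to 25.7 in treated seed. Because both other values are at the floor, this likeness rests on the treated array alone, and 69 of 532 candidates lay within 0.25.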

How the data were processed

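Seed RNA was measured on 3 ATH1 arrays. The deposited values are intensity values, 1 signal per probe set on a linear scale. Per the submitters' processing notes, MAS5 made them; which version and scaling target it used is not given in the sources used here, and detection calls were not analysed. The table holds 22810 probe sets, of which 64 controls were left out; all columns were mapped by name.

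Trimmed means (2% off each end) were 26.5, 43.4 and 44.4 as deposited for unimbibed, untreated and treated seed. Each array was multiplied by 1.44, 0.877 or 0.859 to a common trimmed mean, so a change in total messenger RNA cannot be seen. Signals were raised to the floor, and log2 ratios were taken with Python 3.11.15, numpy 2.4.6 and scipy 1.17.1. The procedure was tested on simulated data, with changes larger than DFR's placed only in probe sets well above the floor. That test does not cover probe sets as dim as DFR and UF3GT. The number of arrays limits the precision. On the unimbibed, untreated and treated arrays 57.0%, 61.7% and 61.2% of probe sets were above the floor. The 3′ over 5′ signal, a sign of RNA integrity, was 1.08, 1.10 and 1.43 for actin. GAPDH gave 0.667, 0.913 and 0.757, while ubiquitin gave 2.21, 2.02 and 2.12.

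By the platform annotation, 13513 probe sets belong to 1 gene, 503 to several and 8730 to none; the last are unnamed here, not without a gene. Of the 13513, 13436 matched the RefSeq gene table (TAIR10.1). A locus with several probe sets has their mean log2 ratio.

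Genes named are the members, all measured genes of the late anthocyanin, early flavonoid and transcription factor lists, and the 2 brightest and 2 most changed of each other list. The 5 genes nearest in pattern and up to 3 neighbours on each side were also eligible. AT5MAT, UGT78D3, TRY, BAN, CCR2, AT3G50990, the UGT and the reductase genes were added after their values were seen, as was the comparison with probe sets of like signal. Members and lists were chosen with earlier results of these data known. Protein and promoter sequences were not used here.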

Additional observations from a re-analysis of the deposited data

How the results depend on the processing

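Scaling alternatives were signals as deposited, a common 75th percentile, quantile normalization, and hybridisation or poly-A controls set equal; the floor was also set at the 25th or 60th percentile or left out. The TSA ratios of DFR over untreated and over unimbibed seed stayed above 2-fold in all 8. DFR passed 2-fold on imbibition with poly-A scaling (at least 1.53), and UF3GT did so without a floor (3.32). UF3GT fell short of 2-fold over both other states with the floor at the 60th percentile (0.16), by construction of the higher floor; at that floor DFR gave no imbibition ratio. UF3GT gave an imbibition ratio in 3 settings.

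Without a floor more pathway genes are measured, so the counts called are given with the number measured. With TSA they went from 4 of 9 to 7 of 14. For TSA over unimbibed seed they went from 8 of 9 to 13 of 14, and on imbibition from 5 of 8 to 8 of 14. The floor at the 60th percentile left 5 of 8 for TSA over unimbibed seed. Of all probe sets measured with TSA, 3132 of 15700 were called. That became 5053 of 17745 with poly-A scaling and 8201 of 22737 without a floor. With the floor at the 25th and 60th percentiles it was 4925 of 19150 and 2024 of 10739. Calls over unimbibed seed went from 7567 of 16314 to 13269 of 22737 without a floor. Calls on imbibition went from 7094 of 16246 to 12676 of 22743. The share of calls that were higher with TSA was 52.3%, and 22.4% with poly-A scaling. On imbibition it was 51.7%, and 75.7%, 76.7% and 92.3% as deposited, with hybridisation and with poly-A controls; over unimbibed seed it was 50.3%, and 75.2%, 73.1% and 86.7%. UGT78D2 over unimbibed seed went from -1.04 to 0.21 with poly-A scaling. The cause of these shifts was not tested. No paired analysis was possible because each group has 1 array.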
